A study of Homo sapiens with 12 samples.

Results

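The 39 genes described here are components of the Hippo pathway and genes commonly used as readouts of YAP, TAZ and TEAD activity, picked by name from 23064 gene symbols. The rule uses no measured value, but the members were proposed with earlier results of these data known. They comprise 5 kinases, 9 kinase adaptors and scaffolds, 2 coactivators, 4 TEAD transcription factors, 6 other proteins that bind YAP or TEAD factors, and 13 target genes. They were followed in RNAseq data of CAL-29 and 5637 cells, established human bladder carcinoma cell lines, harvested 3 days after transfection with the control siRNA siCtrl or with an siRNA against KMT9α, the catalytic subunit of a histone H4 methyltransferase. Each combination of line and siRNA had 3 libraries, which makes 12, and all of them come from transfected cells without further treatment. The labels do not name the siRNA, and its column name, si270, is not matched to either KMT9α siRNA in the paper's text, and reading it as siKMT9α#1 rests on the study's results. It is called siKMT9α here. Each line is a single cell line and 1 siRNA was used. Transfection reagent, siRNA concentration and medium differed between the lines and cannot be told apart from the line. The labels do not say whether the replicates were separate cultures, so p-values measure the spread between these libraries, which may be technical.

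In the Hippo pathway, the MST kinases STK3 and STK4 activate the LATS kinases, which phosphorylate the coactivators YAP (YAP1) and TAZ (WWTR1) and so keep them out of the nucleus. When this cascade is off, YAP and TAZ enter the nucleus, bind the TEAD factors TEAD1 to TEAD4 and induce genes for matrix signalling, growth and cytoskeleton, among them CCN1, CCN2 and ANKRD1. Most of this control acts on phosphorylation and location of proteins, which RNAseq does not measure.

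Total counts on the transcripts used were between 24479348.5 and 35151256.5 per library. N6AMT1, the gene of KMT9α, had 11.4, 10.2 and 9.67 CPM (counts scaled to a common library size with TMM) with siCtrl and 2.82, 2.93 and 1.99 CPM with siKMT9α in CAL-29 cells, and 13.4, 13.2 and 13.3 CPM against 3.78, 2.22 and 2.59 CPM in 5637 cells, so every knockdown library lay below every control library. All 7 epithelial marker genes exceeded 100 counts in both lines. Of 5 urothelial markers, 4 did so in CAL-29 cells and 3 in 5637 cells. Among leukocyte, endothelial and red blood cell markers, only endothelial CDH5 did so on average, in CAL-29 cells with siKMT9α, and none exceeded 4.10 CPM in either line. CDH5 had 0.938, 0.547 and 0.605 CPM with siCtrl and 3.54, 3.84 and 4.10 CPM with siKMT9α in CAL-29 cells, and 1.04, 1.09 and 1.43 against 0.0375, 0.0369 and 0.0985 CPM in 5637 cells. Of the epithelial markers, EPCAM, CDH1, KRT5, KRT8 and KRT18 fell in both lines at the threshold of unadjusted p below 1e-06, as did 8.43% of all genes tested in both. Log2 fold changes of these markers ran from -1.45 for KRT8 to -0.74 for CDH1 in CAL-29 cells. In 5637 cells they ran from -0.94 for EPCAM to -0.28 for KRT5. KRT7 had 0.28 without a call in CAL-29 cells and fell in 5637 cells, at -0.96. KRT19 fell in CAL-29 cells alone, at -0.43. Of the urothelial markers, UPK1B fell in both lines, at -0.52 in CAL-29 and -2.22 in 5637 cells. TP63 fell in CAL-29 cells, at -0.70, and rose in 5637 cells, at 0.36. GATA3 had -0.05 without a call in CAL-29 cells and fell in 5637 cells, at -0.84. UPK2 and UPK3A gave no call. The part of these changes in the results that follow was not tested.

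Changes are given as log2 fold changes of siKMT9α against siCtrl with their standard error (SE), from edgeR's quasi-likelihood test in each line alone. A gene is said to have risen or fallen, or to be upregulated or downregulated, where its unadjusted p was below 1e-06, the threshold of the study. Adjusted p-values are Benjamini-Hochberg values over all genes tested. CPM values carry no correction for gene length and are compared only within a gene. In bulk RNA, a lower level in each cell and fewer cells with the transcript cannot be told apart.

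All 39 genes passed the filter on low counts in CAL-29 cells and 38 passed in 5637 cells, where AMOT was not tested. CAL-29 cells showed 6 upregulated and 19 downregulated members, against shares of 14.9% up and 15.0% down among the 14682 genes tested. For 5637 cells the members split into 11 up and 14 down, against 17.9% up and 17.5% down among 14367 genes. At an adjusted p below 0.05, 8 were higher and 25 lower in CAL-29 cells (34.3% and 35.3% of all genes), and 17 were higher and 18 lower in 5637 cells (35.0% and 35.6%). The members had a median log2 fold change of -0.41 with CAL-29 and 0.05 with 5637 cells, beside -0.02 and -0.01 for every gene tested. The siKMT9α and siCtrl libraries did not overlap for 33 of 39 genes in CAL-29 cells and for 35 of 38 in 5637 cells. Such a separation of 3 libraries from 3 was common, since it held for 72.3% of all genes tested in CAL-29 and for 72.3% in 5637 cells.

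Of the 38 genes tested in both lines, 6 rose in both, namely LATS1, STK4, SAV1, F3, ASAP1 and MYOF, against 8.39% of all 13699 genes tested in both. A further 13 fell in both, namely MOB1A, AJUBA, TEAD1, TEAD2, VGLL3, VGLL4, PTPN14, CCN1, CCN2, ANKRD1, AXL, ARHGEF17 and NUAK2, against 8.43% of all genes. FRMD6 was the 1 gene called in opposite directions, as were 1.74% of all genes. WWC2, WWTR1, TEAD3, AMOTL2 and GADD45B fell in CAL-29 cells and were not called in 5637 cells. WWC1 fell and FAT1, YAP1, TEAD4 and NT5E rose in 5637 cells and were not called in CAL-29 cells. The remaining 8 genes, LATS2, STK3, TAOK1, MOB1B, NF2, AMOTL1, CRIM1 and FJX1, were called in neither line. The plot of log2 fold changes of all members shows the falls reaching further than the rises, to -3.79 for CCN2 in CAL-29 cells against a highest value of 1.58 for ASAP1 in 5637 cells.

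**Figure D1:**
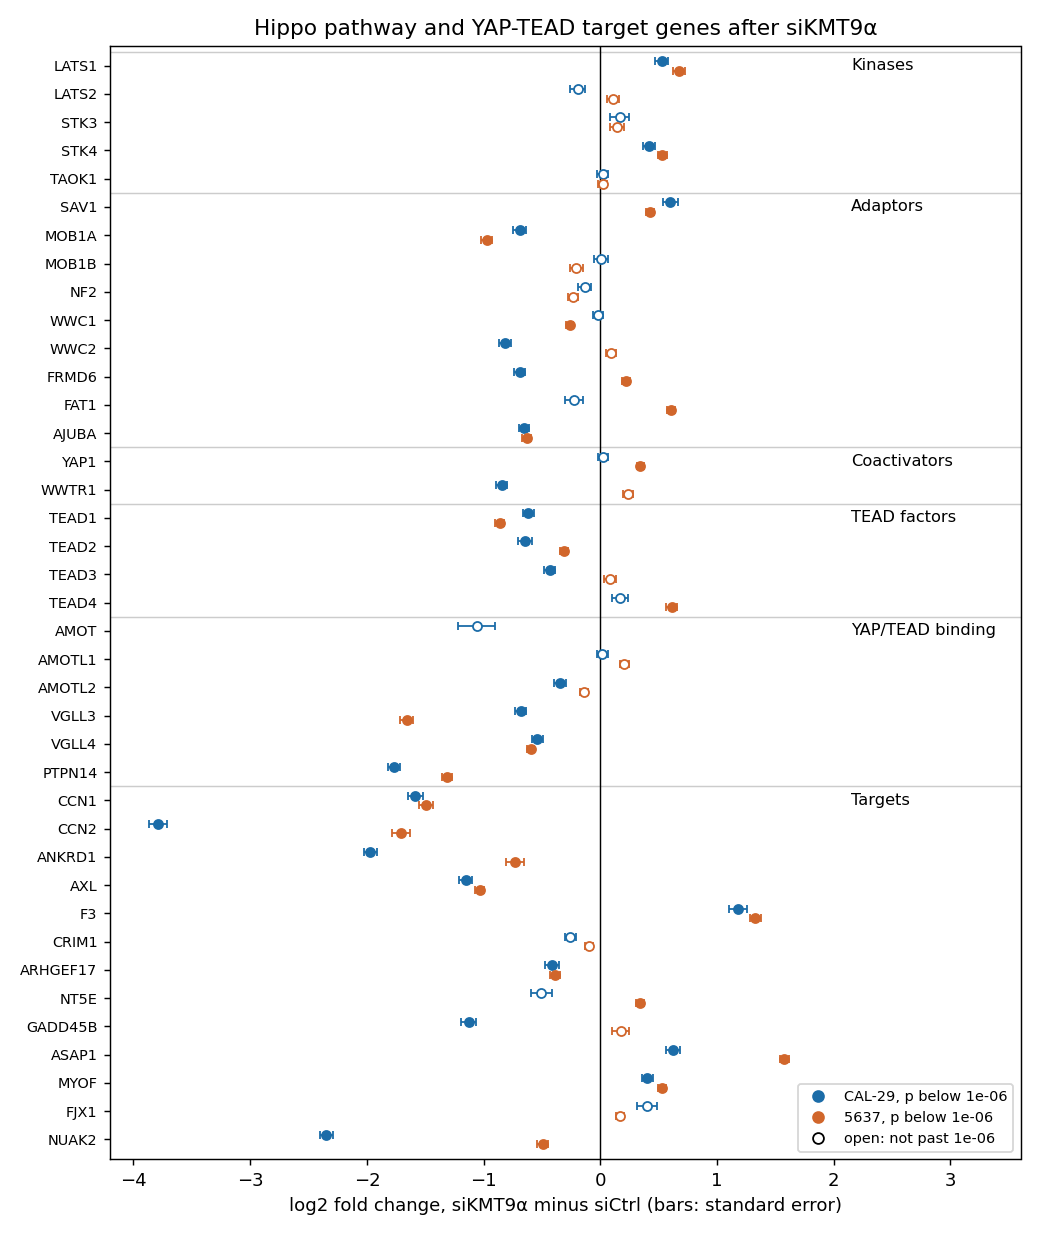
Log2 fold change of siKMT9α against siCtrl for each of the 39 genes, grouped by role, in CAL-29 (blue) and 5637 cells (orange), with the standard error as bars and filled points for genes past the threshold. Among the targets CCN2 stands furthest to the left at -3.79 in CAL-29 cells, and no kinase lies left of -0.19; AMOT has no 5637 point because it was not tested there.

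Of the 5 kinases, 2 rose and none fell in either line. For this and the other roles, the shares of all genes tested were 14.9% up and 15.0% down in CAL-29 cells. In 5637 cells these shares were 17.9% up and 17.5% down. LATS1 had 43.7, 44.7 and 46.6 CPM with siCtrl and 66.2, 65.5 and 62.4 CPM with siKMT9α in CAL-29 cells. In 5637 cells, LATS1 had 29.6, 30.5 and 28.9 CPM with siCtrl and 47.7, 45.6 and 48.6 CPM with siKMT9α. LATS1, which phosphorylates YAP and TAZ, lay higher in every siKMT9α library than in any siCtrl library, with log2 fold changes of 0.52 (SE 0.05, edgeR adjusted p = 2.54e-08) in CAL-29 cells and 0.67 (SE 0.05, edgeR adjusted p = 1.26e-12) in 5637 cells. Its paralogue LATS2 gave no call. LATS2 had 39.9, 40.8 and 39.6 CPM with siCtrl and 37.5, 34.5 and 33.0 CPM with siKMT9α in CAL-29 cells. In 5637 cells, LATS2 had 39.6, 37.7 and 37.1 CPM with siCtrl and 39.6, 40.3 and 43.3 CPM with siKMT9α. LATS2 libraries did not overlap in CAL-29 cells, where siKMT9α was lower, and overlapped in 5637 cells. The log2 fold changes of LATS2 were -0.19 (SE 0.06, edgeR adjusted p = 0.0083) in CAL-29 cells and 0.11 (SE 0.05, edgeR adjusted p = 0.0603) in 5637 cells.

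STK4 had 149, 160.0 and 162 CPM with siCtrl and 216, 208 and 204 CPM with siKMT9α in CAL-29 cells. In 5637 cells, STK4 had 113, 111 and 112 CPM with siCtrl and 168, 155 and 163 CPM with siKMT9α. STK4, an MST kinase upstream of LATS, was upregulated without overlap of the libraries, by 0.42 (SE 0.05, edgeR adjusted p = 1.67e-07) in CAL-29 cells and 0.53 (SE 0.04, edgeR adjusted p = 1.66e-13) in 5637 cells. The CAL-29 call was lost without siCtrl replicate 2 or siKMT9α replicate 1 (unadjusted p up to 1.24e-06). The other MST kinase, STK3, had log2 fold changes of 0.17 and 0.14 in CAL-29 and 5637 cells, and TAOK1, which activates MST kinases, of 0.02 and 0.02. Neither of these was called.

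Among the 9 adaptors and scaffolds there were 1 rise and 4 falls for CAL-29 cells, and 3 rises and 3 falls for 5637 cells. SAV1 had 27.0, 30.1 and 29.4 CPM with siCtrl and 43.7, 41.8 and 45.8 CPM with siKMT9α in CAL-29 cells. In 5637 cells, SAV1 had 141, 144 and 147 CPM with siCtrl and 196, 194 and 189.6 CPM with siKMT9α. SAV1, the scaffold of the MST kinases, was higher in all siKMT9α libraries of both lines, by 0.60 (SE 0.06, edgeR adjusted p = 4.19e-08) in CAL-29 cells and 0.42 (SE 0.03, edgeR adjusted p = 4.60e-12) in 5637 cells. Of its annotated exon bases, 31.9% lie opposite exons of ATL1. No source used here states whether counting used the strand, so reads of the 2 genes cannot be told apart there. Exons on the other strand also lie opposite 10.7% of the exon bases of TEAD2, 10.1% of YAP1 and 9.87% of ARHGEF17.

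MOB1A, the adaptor that LATS kinases need for activity, moved the other way. MOB1A had 94.4, 102 and 107 CPM with siCtrl and 60.6, 64.7 and 62.8 CPM with siKMT9α in CAL-29 cells. In 5637 cells, MOB1A had 63.1, 64.3 and 60.9 CPM with siCtrl and 31.5, 32.5 and 31.8 CPM with siKMT9α. MOB1A libraries did not overlap, and the gene fell by 0.69 (SE 0.05, edgeR adjusted p = 3.99e-10) on the log2 scale in CAL-29 cells and by 0.97 (SE 0.05, edgeR adjusted p = 5.58e-17) in 5637 cells. The paralogue MOB1B had log2 fold changes of 0.00 and -0.21 and was called in neither line. AJUBA, a LIM protein that binds and inhibits LATS kinases, followed MOB1A in direction. AJUBA had 352, 348 and 346 CPM with siCtrl and 220.2, 220.4 and 225 CPM with siKMT9α in CAL-29 cells. In 5637 cells, AJUBA had 204, 222 and 210.4 CPM with siCtrl and 143, 134 and 135 CPM with siKMT9α. AJUBA had log2 fold changes of -0.65 (SE 0.04, edgeR adjusted p = 4.24e-11) in CAL-29 cells and -0.63 (SE 0.04, edgeR adjusted p = 6.83e-15) in 5637 cells, with all siKMT9α libraries below all siCtrl libraries.

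WWC2, FRMD6 and FAT1, which act upstream of the kinases at the membrane and cell junctions, responded differently in the 2 lines. WWC2 had 69.8, 68.9 and 73.2 CPM with siCtrl and 40.1, 40.8 and 39.2 CPM with siKMT9α in CAL-29 cells. In 5637 cells, WWC2 had 60.2, 62.0 and 61.3 CPM with siCtrl and 66.9, 63.8 and 64.9 CPM with siKMT9α. WWC2 thus stood lower in all CAL-29 siKMT9α libraries and slightly higher in all of 5637, with log2 fold changes of -0.82 (SE 0.05, edgeR adjusted p = 1.91e-11) in CAL-29 cells and 0.09 (SE 0.04, edgeR adjusted p = 0.0458) in 5637 cells. Exons of CLDN22 lie opposite 21.8% of its exon bases. FRMD6 had 505, 485 and 496 CPM with siCtrl and 317, 305 and 298 CPM with siKMT9α in CAL-29 cells. In 5637 cells, FRMD6 had 289, 293 and 275 CPM with siCtrl and 329.7, 330.4 and 337 CPM with siKMT9α. FRMD6 libraries did not overlap in either line, in opposite directions, with log2 fold changes of -0.69 (SE 0.05, edgeR adjusted p = 3.77e-11) in CAL-29 cells and 0.22 (SE 0.03, edgeR adjusted p = 8.16e-07) in 5637 cells. The 5637 call of FRMD6 was lost without siCtrl replicate 1 or 3 or without siKMT9α replicate 2 or 3 (unadjusted p between 1.09e-06 and 1.11e-05), and also with total-count scaling, upper-quartile scaling and the joint model of both lines (unadjusted p between 6.04e-06 and 1.62e-05).

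FAT1 had 473, 354 and 346 CPM with siCtrl and 336, 333 and 334 CPM with siKMT9α in CAL-29 cells. In 5637 cells, FAT1 had 325, 333 and 318 CPM with siCtrl and 514, 471 and 496 CPM with siKMT9α. FAT1, a large protocadherin, rose in 5637 cells, where no library overlapped. In CAL-29 cells its siCtrl replicate 1 stood far above the other two siCtrl libraries, which lay close to the siKMT9α libraries. The log2 fold changes of FAT1 were -0.22 (SE 0.08, edgeR adjusted p = 0.017) in CAL-29 cells and 0.60 (SE 0.03, edgeR adjusted p = 2.35e-15) in 5637 cells. NF2, the tumour suppressor merlin, had -0.13 and -0.24 in CAL-29 and 5637 cells without a call, though its 5637 value passed with other scalings and tests, and WWC1 (KIBRA), its partner, -0.02 without a call and -0.26 (edgeR adjusted p = 2.07e-08) as a fall in 5637 cells.

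The coactivator genes gave 1 fall in CAL-29 and 1 rise in 5637 cells. YAP1 had 173, 170.3 and 176 CPM with siCtrl and 174, 179 and 174 CPM with siKMT9α in CAL-29 cells. In 5637 cells, YAP1 had 363, 364 and 348 CPM with siCtrl and 463, 447 and 454 CPM with siKMT9α. YAP1 libraries overlapped in CAL-29 cells and lay apart in 5637 cells, where siKMT9α was higher. Its log2 fold change was 0.02 (SE 0.04, edgeR adjusted p = 0.676) in CAL-29 cells, where the sign turned to -0.0071 with upper-quartile scaling, and 0.34 (SE 0.03, edgeR adjusted p = 8.45e-11) in 5637 cells.

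WWTR1 had 144, 151 and 154 CPM with siCtrl and 84.6, 83.4 and 81.5 CPM with siKMT9α in CAL-29 cells. In 5637 cells, WWTR1 had 68.8, 67.8 and 63.6 CPM with siCtrl and 79.9, 78.4 and 77.5 CPM with siKMT9α. WWTR1, which encodes TAZ, was lower in every siKMT9α library of CAL-29 cells and higher in every one of 5637 cells. It fell in CAL-29 cells by 0.85 on the log2 scale (SE 0.05, edgeR adjusted p = 1.69e-12). The 5637 value of 0.24 (SE 0.04, edgeR adjusted p = 9.84e-06) did not pass 1e-06 with the quasi-likelihood test. It did pass, at 0.24 each, with DESeq2, edgeR's likelihood ratio test or no low-count filter. The antisense gene WWTR1-AS1 lies opposite 9.05% of the exon bases of WWTR1.

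Of the 4 TEAD factors, TEAD1 and TEAD2 fell in both lines. TEAD1 had 171, 157 and 167 CPM with siCtrl and 109, 105 and 108 CPM with siKMT9α in CAL-29 cells. In 5637 cells, TEAD1 had 175, 171 and 168 CPM with siCtrl and 97.7, 90.5 and 94.7 CPM with siKMT9α. TEAD1 was lower in all siKMT9α libraries, with log2 fold changes of -0.62 (SE 0.05, edgeR adjusted p = 3.16e-10) in CAL-29 cells and -0.86 (SE 0.04, edgeR adjusted p = 3.46e-18) in 5637 cells. TEAD2 had 58.7, 65.3 and 65.5 CPM with siCtrl and 39.6, 40.7 and 40.8 CPM with siKMT9α in CAL-29 cells. In 5637 cells, TEAD2 had 98.1, 98.7 and 97.6 CPM with siCtrl and 80.0, 77.3 and 79.9 CPM with siKMT9α. TEAD2 was likewise lower without overlap, with log2 fold changes of -0.65 (SE 0.06, edgeR adjusted p = 2.76e-09) in CAL-29 cells and -0.31 (SE 0.04, edgeR adjusted p = 1.82e-08) in 5637 cells.

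TEAD3 and TEAD4 were each called in 1 line. TEAD3 had 138, 143 and 143 CPM with siCtrl and 103, 105 and 106 CPM with siKMT9α in CAL-29 cells. In 5637 cells, TEAD3 had 29.6, 30.8 and 31.5 CPM with siCtrl and 31.6, 33.4 and 32.4 CPM with siKMT9α. TEAD3 was lower in all siKMT9α libraries of CAL-29 cells and marginally above siCtrl in 5637 cells, with log2 fold changes of -0.43 (SE 0.05, edgeR adjusted p = 3.44e-08) in CAL-29 cells and 0.08 (SE 0.05, edgeR adjusted p = 0.159) in 5637 cells. TEAD4 had 25.2, 24.3 and 25.8 CPM with siCtrl and 29.8, 26.9 and 27.9 CPM with siKMT9α in CAL-29 cells. In 5637 cells, TEAD4 had 46.6, 43.99 and 44.1 CPM with siCtrl and 67.7, 68.8 and 69.1 CPM with siKMT9α. TEAD4 was the 1 TEAD factor with higher values in all siKMT9α libraries of both lines, with 0.16 (SE 0.07, edgeR adjusted p = 0.0376) in CAL-29 cells, which is no call at 1e-06, and 0.61 (SE 0.04, edgeR adjusted p = 4.48e-13) in 5637 cells, which is.

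**Figure D2:**
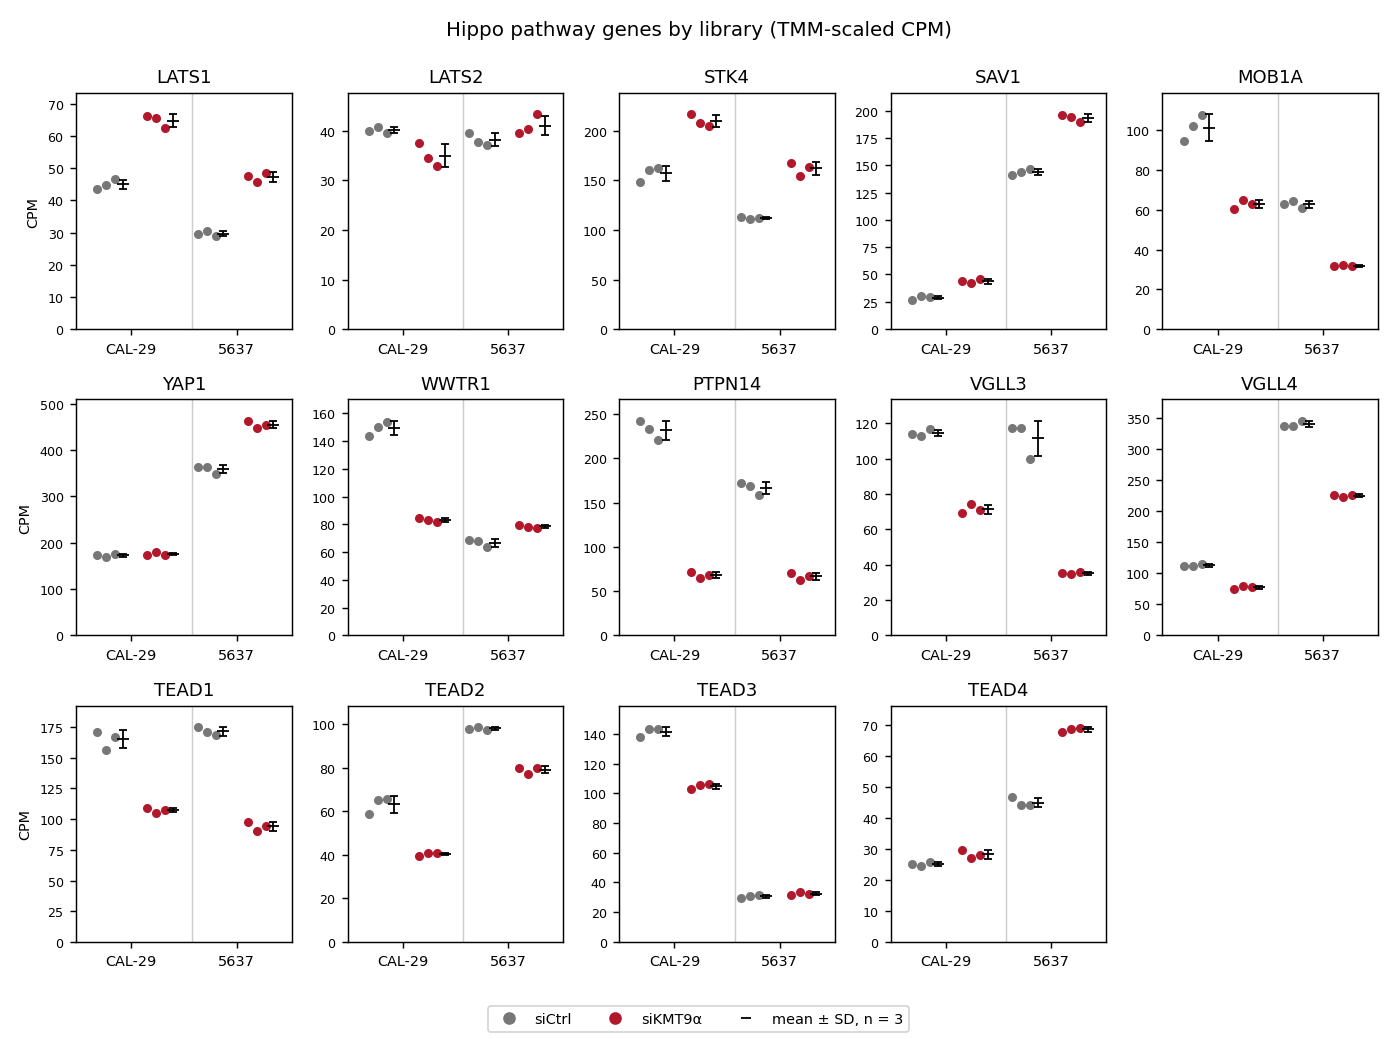
TMM-scaled CPM of 14 pathway genes in each of the 12 libraries, from 0 on a linear axis, with siCtrl in grey, siKMT9α in red and the mean ± SD of 3 libraries in black. LATS1, STK4 and SAV1 lie higher with siKMT9α in both lines and PTPN14, VGLL3, VGLL4, MOB1A, TEAD1 and TEAD2 lower, while WWTR1 is lower in CAL-29 and slightly higher in 5637 cells.

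The proteins that bind YAP or TEAD factors include inhibitors of both, and with edgeR's quasi-likelihood test none of their genes rose in either line, 4 of 6 fell in CAL-29 cells and 3 of 5 in 5637 cells. PTPN14 had 242, 232 and 220.2 CPM with siCtrl and 71.5, 65.0 and 67.8 CPM with siKMT9α in CAL-29 cells. In 5637 cells, PTPN14 had 172, 168 and 159 CPM with siCtrl and 70.5, 62.5 and 67.3 CPM with siKMT9α. PTPN14, a phosphatase that retains YAP in the cytoplasm and is itself a known YAP target, was lower in all siKMT9α libraries, with log2 fold changes of -1.77 (SE 0.05, edgeR adjusted p = 6.29e-17) in CAL-29 cells and -1.32 (SE 0.04, edgeR adjusted p = 5.07e-21) in 5637 cells.

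VGLL3 and VGLL4 bind TEAD factors in competition with YAP. VGLL3 had 114, 113 and 117 CPM with siCtrl and 69.3, 74.2 and 70.8 CPM with siKMT9α in CAL-29 cells. In 5637 cells, VGLL3 had 117, 117 and 100.1 CPM with siCtrl and 35.2, 34.5 and 36.0 CPM with siKMT9α. VGLL3 libraries lay apart in both lines, with siKMT9α lower and the larger gap in 5637 cells. Log2 fold changes of VGLL3 were -0.68 (SE 0.05, edgeR adjusted p = 6.80e-11) in CAL-29 cells and -1.66 (SE 0.05, edgeR adjusted p = 4.02e-21) in 5637 cells. VGLL4 had 112, 112 and 116 CPM with siCtrl and 75.4, 79.7 and 78.6 CPM with siKMT9α in CAL-29 cells. In 5637 cells, VGLL4 had 338, 337 and 346 CPM with siCtrl and 226, 223 and 227 CPM with siKMT9α. VGLL4 was lower in all siKMT9α libraries, with log2 fold changes of -0.54 (SE 0.05, edgeR adjusted p = 2.25e-09) in CAL-29 cells and -0.60 (SE 0.03, edgeR adjusted p = 4.94e-16) in 5637 cells. Different transcripts of VGLL4 held the most counts in the 2 lines, and exons of other genes, ATG7 among them, lie opposite 23.8% of its exon bases.

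The angiomotins bind YAP and hold it at junctions and actin. AMOT had 5.06, 5.90 and 5.78 CPM with siCtrl and 3.05, 2.59 and 2.35 CPM with siKMT9α in CAL-29 cells, and at most 0.449 CPM in any 5637 library. Its CAL-29 log2 fold change of -1.06 (SE 0.16, edgeR adjusted p = 5.07e-06) missed the threshold of 1e-06, and passed it at -1.12 without siCtrl replicate 1, and at values between -1.06 and -1.05 with the replicate block, DESeq2, the likelihood ratio test of edgeR or no low-count filter. AMOTL2 fell in CAL-29 cells by 0.34 on the log2 scale (edgeR adjusted p = 2.25e-06), a call that was lost without siCtrl replicate 2 or without any 1 of the siKMT9α libraries or with total-count scaling (unadjusted p between 1.05e-05 and 4.99e-05). In 5637 cells AMOTL2 had -0.14 without a call, and was called as a fall there with total-count scaling. AMOTL1 had 0.02 and 0.21 without a call, though its 5637 value passed 1e-06 as a rise with DESeq2, the likelihood ratio test or no low-count filter.

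The 13 target genes split into 3 up and 7 down in CAL-29 cells (median log2 fold change -0.51) and into 4 up and 6 down in 5637 cells (median -0.10). All genes tested had 14.9% up and 15.0% down with a median of -0.02 in CAL-29 cells. In 5637 cells they had 17.9% up and 17.5% down with a median of -0.01. CCN1, CCN2, ANKRD1, AXL, ARHGEF17 and NUAK2 fell in both lines, and F3, ASAP1 and MYOF rose in both.

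CCN2 had 102, 94.5 and 86.6 CPM with siCtrl and 7.43, 6.68 and 6.24 CPM with siKMT9α in CAL-29 cells. In 5637 cells, CCN2 had 131, 148 and 110.0 CPM with siCtrl and 33.9, 39.9 and 45.0 CPM with siKMT9α. CCN2, or CTGF, a secreted matricellular protein and a widely used YAP readout, was far lower in all siKMT9α libraries than in any siCtrl library of its line. CCN2 fell by 3.79 on the log2 scale in CAL-29 cells (SE 0.08, edgeR adjusted p = 3.36e-19), where the means were 94.4 ± 7.71 CPM with siCtrl and 6.79 ± 0.603 CPM with siKMT9α (SD, n = 3). It fell by 1.71 in 5637 cells (SE 0.08, edgeR adjusted p = 2.15e-17), with means of 129.8 ± 19.2 CPM with siCtrl and 39.6 ± 5.59 CPM with siKMT9α (SD, n = 3). The gene spans positions 132269316 to 132272512 of chromosome 6 of GRCh37 on the minus strand, and LINC01013 lies opposite 11.9% of its exon bases. CCN1 had 980.0, 909 and 795 CPM with siCtrl and 305, 300.2 and 289 CPM with siKMT9α in CAL-29 cells. In 5637 cells, CCN1 had 534, 585 and 483 CPM with siCtrl and 165, 187 and 215 CPM with siKMT9α. CCN1, or CYR61, the related matricellular protein, was lower in every siKMT9α library, with log2 fold changes of -1.58 (SE 0.06, edgeR adjusted p = 6.37e-15) in CAL-29 cells and -1.5 (SE 0.06, edgeR adjusted p = 1.60e-18) in 5637 cells.

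ANKRD1 had 101, 96.6 and 89.8 CPM with siCtrl and 25.5, 23.5 and 24.5 CPM with siKMT9α in CAL-29 cells. In 5637 cells, ANKRD1 had 28.8, 30.8 and 26.9 CPM with siCtrl and 15.1, 16.5 and 20.3 CPM with siKMT9α. ANKRD1, an ankyrin repeat protein of muscle and stressed epithelium, was lower in all siKMT9α libraries, most so in CAL-29 cells, with -1.97 (SE 0.06, edgeR adjusted p = 9.95e-17) in CAL-29 cells and -0.73 (SE 0.08, edgeR adjusted p = 2.53e-09) in 5637 cells. NUAK2 had 92.4, 94.0 and 92.9 CPM with siCtrl and 19.0, 17.2 and 18.8 CPM with siKMT9α in CAL-29 cells. In 5637 cells, NUAK2 had 50.4, 52.7 and 52.6 CPM with siCtrl and 38.4, 36.2 and 35.9 CPM with siKMT9α. NUAK2, an AMPK-related kinase that acts on actomyosin, likewise lay lower without overlap in both lines. Log2 fold changes of NUAK2 were -2.35 (SE 0.06, edgeR adjusted p = 4.88e-18) in CAL-29 cells and -0.49 (SE 0.05, edgeR adjusted p = 3.06e-10) in 5637 cells.

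AXL had 75.5, 72.7 and 68.8 CPM with siCtrl and 31.5, 33.0 and 33.0 CPM with siKMT9α in CAL-29 cells. In 5637 cells, AXL had 691, 712 and 676 CPM with siCtrl and 316, 339 and 359 CPM with siKMT9α. AXL, a receptor tyrosine kinase, was lower in all siKMT9α libraries of both lines although its siCtrl level differed widely between them. Its log2 fold changes were -1.16 (SE 0.06, edgeR adjusted p = 1.81e-13) in CAL-29 cells and -1.03 (SE 0.04, edgeR adjusted p = 6.88e-20) in 5637 cells. ARHGEF17 had 98.6, 91.4 and 86.9 CPM with siCtrl and 70.0, 64.02 and 74.1 CPM with siKMT9α in CAL-29 cells. In 5637 cells, ARHGEF17 had 91.2, 84.2 and 82.6 CPM with siCtrl and 68.9, 64.5 and 63.9 CPM with siKMT9α. ARHGEF17, a guanine nucleotide exchange factor, fell without overlap, with log2 fold changes of -0.41 (SE 0.06, edgeR adjusted p = 2.75e-06) in CAL-29 cells and -0.39 (SE 0.04, edgeR adjusted p = 6.98e-09) in 5637 cells. Its CAL-29 call was lost without siCtrl replicate 2 or without any 1 of the siKMT9α libraries or with total-count scaling (unadjusted p between 3.24e-06 and 2.93e-05).

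GADD45B, a stress-induced regulator of growth arrest, fell in CAL-29 cells. GADD45B had 70.0, 85.4 and 79.1 CPM with siCtrl and 37.1, 35.4 and 34.8 CPM with siKMT9α in CAL-29 cells. In 5637 cells, GADD45B had 33.2, 36.4 and 29.5 CPM with siCtrl and 31.8, 41.2 and 38.5 CPM with siKMT9α. GADD45B libraries lay apart in CAL-29 cells and overlapped in 5637 cells, with log2 fold changes of -1.13 (SE 0.07, edgeR adjusted p = 3.17e-12) in CAL-29 cells and 0.17 (SE 0.07, edgeR adjusted p = 0.0358) in 5637 cells.

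The targets that rose in both lines include F3, tissue factor, which starts blood coagulation. F3 had 110.1, 89.2 and 80.7 CPM with siCtrl and 225, 211 and 197 CPM with siKMT9α in CAL-29 cells. In 5637 cells, F3 had 134, 143 and 119 CPM with siCtrl and 309, 334 and 349.6 CPM with siKMT9α. F3 was higher in all siKMT9α libraries, with 1.18 (SE 0.08, edgeR adjusted p = 2.60e-11) in CAL-29 cells and 1.33 (SE 0.05, edgeR adjusted p = 7.02e-20) in 5637 cells. ASAP1 had 72.9, 60.4 and 62.8 CPM with siCtrl and 104, 101 and 97.7 CPM with siKMT9α in CAL-29 cells. In 5637 cells, ASAP1 had 76.8, 73.4 and 74.6 CPM with siCtrl and 231, 221 and 219 CPM with siKMT9α. ASAP1, a GTPase-activating protein of ARF proteins in focal adhesions, was higher without overlap, by 0.63 (SE 0.06, edgeR adjusted p = 9.74e-09) in CAL-29 cells and 1.58 (SE 0.04, edgeR adjusted p = 2.52e-24) in 5637 cells. MYOF had 656, 598 and 626 CPM with siCtrl and 828, 837 and 820.4 CPM with siKMT9α in CAL-29 cells. In 5637 cells, MYOF had 249.1, 259 and 249.97 CPM with siCtrl and 376, 352 and 365 CPM with siKMT9α. MYOF, a membrane repair protein, was higher in all siKMT9α libraries, by 0.40 (SE 0.05, edgeR adjusted p = 3.35e-07) in CAL-29 cells and 0.53 (SE 0.03, edgeR adjusted p = 2.57e-14) in 5637 cells, and its CAL-29 call was lost without siCtrl replicate 2 or without any 1 of the siKMT9α libraries (unadjusted p between 1.54e-06 and 6.20e-06).

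NT5E had 19.2, 21.1 and 21.6 CPM with siCtrl and 16.1, 13.2 and 14.4 CPM with siKMT9α in CAL-29 cells. In 5637 cells, NT5E had 100.3, 101 and 99.9 CPM with siCtrl and 123, 126 and 133 CPM with siKMT9α. NT5E, the ectonucleotidase CD73, was lower in all siKMT9α libraries of CAL-29 cells and higher in all of 5637 cells. It rose in 5637 cells by 0.34 (SE 0.04, edgeR adjusted p = 3.30e-09), and its CAL-29 value of -0.51 (SE 0.09, edgeR adjusted p = 3.55e-05) was not called at 1e-06, though it was, at -0.55, without siCtrl replicate 1, and also with the replicate block, the joint model, the likelihood ratio test or no low-count filter. CRIM1, which binds growth factors, had -0.26 and -0.10, with its CAL-29 value called, at -0.22, without siCtrl replicate 1, and also with the replicate block, DESeq2, the likelihood ratio test or no low-count filter. FJX1, a secreted kinase homologue, had 0.40 and 0.17 without a call, the CAL-29 value passing in the joint model.

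**Figure D3:**
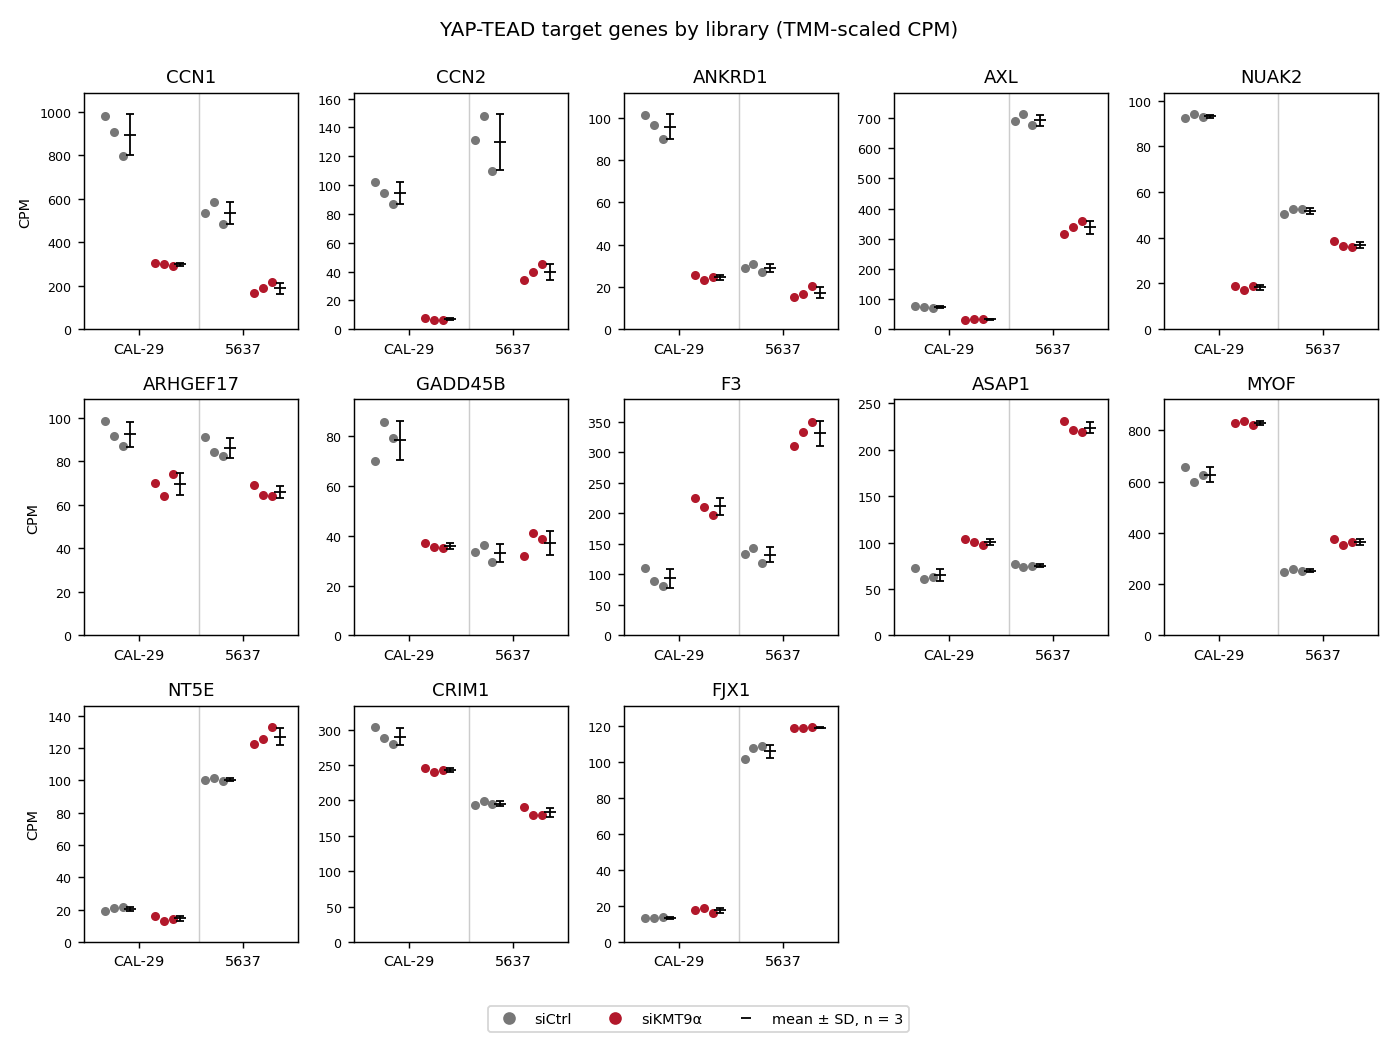
TMM-scaled CPM of the 13 target genes in each of the 12 libraries, from 0 on a linear axis, with siCtrl in grey, siKMT9α in red and the mean ± SD of 3 libraries in black. CCN1, CCN2, ANKRD1, AXL, NUAK2 and ARHGEF17 are lower with siKMT9α in both lines, F3, ASAP1 and MYOF are higher in both, and GADD45B drops in CAL-29 cells alone.

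TEAD factors bind DNA at the core motif GGAATG, so the promoter windows of the members were searched for GGAATG and its reverse complement CATTCC on the strand of the gene. The windows run from 250 bases before to 50 after a RefSeq start site (GRCh38.p14, 300 bases each), and 32 of the 39 genes had at least 1 window, 46 in all. TEAD4, STK3, ASAP1, CRIM1, TEAD1, ARHGEF17 and CCN1 had none in the table. A match is a description of letters and not evidence that a factor binds. The 3 windows below belong to the target genes with 2 or more copies, with each copy in capitals. They lie at chr6:131951323-131951622, chr10:90921038-90921337 and chr1:205321696-205321995, all on the minus strand, and are printed 5′ to 3′ in the direction of the gene.
CCN2: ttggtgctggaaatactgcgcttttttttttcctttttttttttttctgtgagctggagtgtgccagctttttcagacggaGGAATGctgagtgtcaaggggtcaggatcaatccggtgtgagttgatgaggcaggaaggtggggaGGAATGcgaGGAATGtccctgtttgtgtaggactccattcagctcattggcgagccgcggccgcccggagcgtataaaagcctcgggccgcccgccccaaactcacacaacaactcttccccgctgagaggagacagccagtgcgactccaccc
ANKRD1: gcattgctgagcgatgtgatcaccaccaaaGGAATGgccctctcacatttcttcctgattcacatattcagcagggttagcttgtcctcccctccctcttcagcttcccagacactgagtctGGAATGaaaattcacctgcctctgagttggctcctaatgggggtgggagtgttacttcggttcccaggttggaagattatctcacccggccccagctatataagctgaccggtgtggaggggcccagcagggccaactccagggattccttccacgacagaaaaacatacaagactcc
NUAK2: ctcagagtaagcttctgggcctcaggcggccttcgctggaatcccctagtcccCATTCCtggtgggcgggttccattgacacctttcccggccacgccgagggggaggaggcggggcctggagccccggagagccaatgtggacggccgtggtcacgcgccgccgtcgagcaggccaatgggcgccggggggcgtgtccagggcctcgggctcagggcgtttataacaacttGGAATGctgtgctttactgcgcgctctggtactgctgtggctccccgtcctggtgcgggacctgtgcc

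CCN2 had 3 copies, 169, 104 and 95 bases before the start site. ANKRD1 had 2, at 220 and 128 bases before it, and NUAK2 had 2, at 197 and 18 bases before it. These 3 had the lowest log2 fold changes of the targets in CAL-29 cells, but in 5637 cells CCN2, CCN1 and AXL had, and CCN1 had no window to search. WWC2 held 2 copies as well, and PTPN14, YAP1, LATS2 and 1 window each of AXL, AJUBA and AMOTL2 held 1 copy. In all, 10 of the 46 windows (21.7%) held the motif, against 14.0% of all 35116 windows in the table and 11.6% of the 16884 windows of genes tested. It was in 4 of 10 windows of targets (40.0%) and in 6 of 36 windows of the other members (16.7%). Since the targets were picked as readouts of TEAD activity, their share is no independent result. At least 2 copies were found in 4 of the 46 windows (8.70%), against 1.37% of all windows, and CCN2 was the 1 member with 3 copies, a count that 0.128% of all windows reached. By response, the motif was in 8 of 26 windows (30.8%) of members that fell in CAL-29 cells in 0 of 6 windows of those that rose and in 2 of 14 of those not called, while it was in 12.7% of the windows of all genes that fell there. For 5637 cells, it was in 6 of 19 windows (31.6%) of members that fell, beside 12.5% for all genes that fell. It was in 1 of 11 windows of members that rose there and in 3 of 15 of those not called. The 4 target windows with the motif, those of CCN2, ANKRD1, NUAK2 and AXL, are in the fallen group of both lines. The targets were picked as readouts of TEAD activity and a gene can have several windows, so these splits are no independent result either. F3 and MYOF, which rose in both lines, had no copy. Neither had GADD45B, which fell in CAL-29 cells, nor the targets NT5E and FJX1. Of the other members, MOB1A, TEAD2, VGLL3 and VGLL4, which fell in both lines, had no copy. LATS1, STK4 and SAV1, which rose in both, had none either.

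An siRNA can also lower transcripts whose 3′ UTR matches positions 2 to 8 of its guide strand. For siKMT9α#1 this site is ACATTCA, and it was sought in the longest annotated 3′ UTR of each gene (GENCODE on GRCh37, the assembly called hg19 in the files' build). Of the 39 members, 8 held it (20.5%), against 15.4% of 12409 genes tested in both lines, namely TAOK1, MOB1A, MOB1B, NF2, WWC1, AMOT, AMOTL2 and VGLL3. The sites of the 2 members that held it and fell in both lines are shown with 8 bases on each side and the site in capitals, MOB1A at chr2:74380024-74380046 on the minus strand and VGLL3 at chr3:86989067-86989089 on the minus strand.
MOB1A: ctgcactgACATTCAtttgagtt
VGLL3: tcagtcagACATTCAgcaaagat

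Among the 13 members that fell in both lines, these 2 (15.4%) held the site, against 41.0% of all genes that fell in both lines. With the shortest 3′ UTR it was 1 of the 13 (7.69%), MOB1A and not VGLL3, against 18.2%. CCN1, CCN2, ANKRD1, AXL, NUAK2, PTPN14 and TEAD1 held none in their longest annotated 3′ UTR. None of the 6 members that rose in both lines held it, against 7.37% of all genes that rose in both. Site matches outside the 3′ UTR and the other strand of the siRNA were not searched, and the part of the site in the levels of MOB1A and VGLL3 was not tested.

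Whether a member responded differently in the lines was tested with the interaction of line and siRNA over all 12 libraries, against a difference of 1.5-fold, at an adjusted p below 0.05. Of the 39 members, 11 passed, against 10.8% of all 15411 genes. For 10 of the 11 the response was higher, or less negative, in 5637 than in CAL-29 cells. The exception was VGLL3, with a difference of -1.0 (SE 0.07, edgeR adjusted p = 1.42e-05). Of the 13 targets, CCN2 differed by 2.07 (SE 0.14, edgeR adjusted p = 2.22e-10), NUAK2 by 1.84 (SE 0.07, edgeR adjusted p = 3.53e-15), GADD45B by 1.28 (SE 0.11, edgeR adjusted p = 1.95e-06), ANKRD1 by 1.22 (SE 0.11, edgeR adjusted p = 3.91e-06) and ASAP1 by 0.94 (SE 0.07, edgeR adjusted p = 6.53e-05). These comprise 3 targets that fell in both lines and more strongly in CAL-29 cells, 1 that fell in CAL-29 cells with no call in 5637 cells, and ASAP1, which rose in both and more strongly in 5637 cells. NT5E differed by 0.83 (SE 0.09, edgeR adjusted p = 0.0098), a call that was lost without siKMT9α replicate 2 of CAL-29 cells (edgeR adjusted p = 0.0797) and with scaling by total counts (adjusted p = 0.150).

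Among the upstream genes, WWTR1 differed by 1.06 (SE 0.06, edgeR adjusted p = 5.02e-08), WWC2 by 0.90 (SE 0.06, edgeR adjusted p = 7.67e-05) and FRMD6 by 0.89 (SE 0.06, edgeR adjusted p = 1.31e-05). FAT1 differed by 0.81 (SE 0.10, edgeR adjusted p = 0.0329), and this call was lost without siCtrl replicate 1 or siKMT9α replicate 2 of CAL-29 cells, siCtrl replicate 1 or 3 of 5637 cells, or siKMT9α replicate 1 or 3 of 5637 cells (edgeR adjusted p between 0.0513 and 0.218), and with scaling by total counts (adjusted p = 0.270). The difference for YAP1 was 0.31 (SE 0.05), for TEAD4 0.43 (SE 0.08) and for TEAD3 0.50 (SE 0.06), none of which passed. CCN1 had a difference of 0.07 (SE 0.10), AXL of 0.10 (SE 0.07), F3 of 0.13 (SE 0.10) and PTPN14 of 0.43 (SE 0.07), so no difference above 1.5-fold was called for these. The plot of responses in one line against the other shows most of the 11 genes above the line of equal response.

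**Figure D4:**
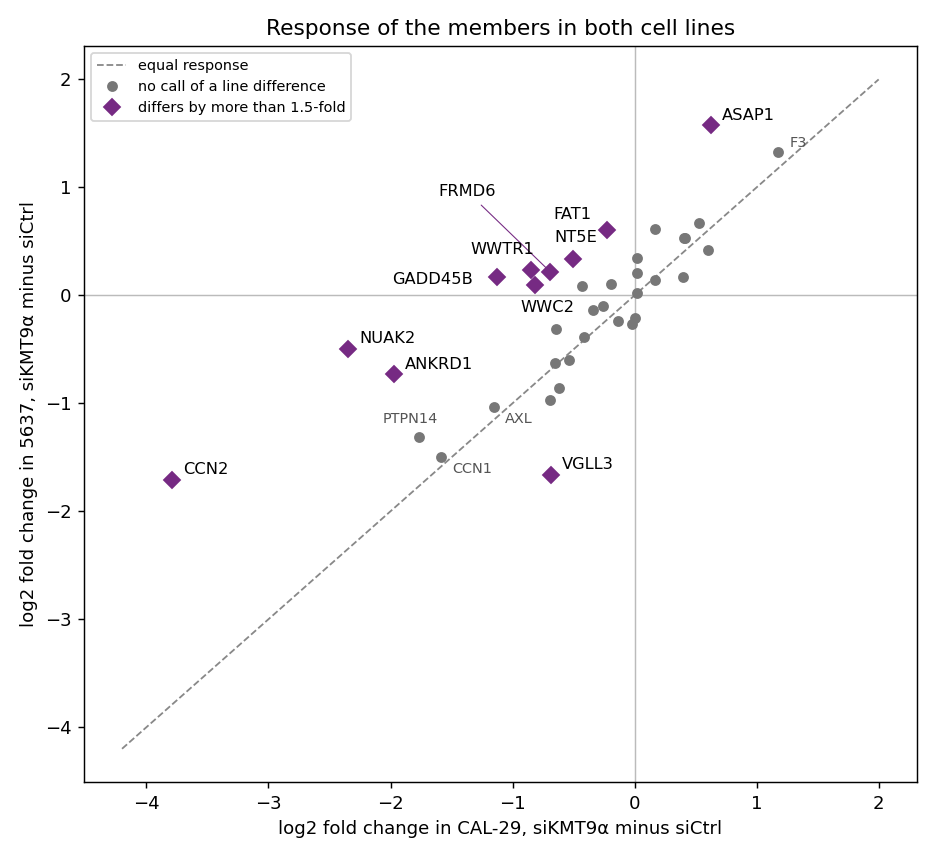
Log2 fold change of siKMT9α against siCtrl in 5637 cells against that in CAL-29 cells for the 38 members tested in both, with the 11 whose response differed by the interaction test as purple diamonds and the dashed line marking equal responses. CCN2 and NUAK2 lie far above the line, near it lie CCN1, AXL and F3, and VGLL3 is the 1 diamond below it.

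The level before knockdown also differed between the lines. With siCtrl, 9 members were higher in 5637 than in CAL-29 cells by more than 1.5-fold and 10 were lower, against 25.6% and 25.9% of all genes, and 20 gave no call. The coactivators differed in opposite directions, with YAP1 higher in 5637 cells by 1.12 (SE 0.04, edgeR adjusted p = 1.90e-14) on the log2 scale and WWTR1 lower, at -1.09 (SE 0.04, edgeR adjusted p = 7.17e-13). TEAD4 and TEAD2 were higher in 5637 cells, at 0.91 (SE 0.05, edgeR adjusted p = 5.34e-07) and 0.70 (SE 0.05, edgeR adjusted p = 0.00363), and TEAD3 was lower, at -2.14 (SE 0.04, edgeR adjusted p = 7.68e-24). TEAD1 showed no call, with 0.13 (SE 0.04). Neither LATS1, at -0.53, nor LATS2, at -0.002, was called.

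Of the targets, AXL was higher in 5637 cells by 3.33 (SE 0.05, edgeR adjusted p = 1.51e-28), FJX1 by 3.06 (SE 0.06, edgeR adjusted p = 4.79e-26) and NT5E by 2.35 (SE 0.06, edgeR adjusted p = 2.32e-22). SAV1, AMOTL1 and VGLL4 were higher by 2.39 (SE 0.05, edgeR adjusted p = 1.83e-24), 1.599 (SE 0.04, edgeR adjusted p = 1.13e-19) and 1.66 (SE 0.04, edgeR adjusted p = 1.15e-21). ANKRD1, MYOF, GADD45B and NUAK2 were lower, at -1.66 (SE 0.07, edgeR adjusted p = 9.23e-16), -1.24 (SE 0.04, edgeR adjusted p = 8.44e-16), -1.18 (SE 0.08, edgeR adjusted p = 5.21e-09) and -0.77 (SE 0.05, edgeR adjusted p = 7.93e-05). AMOT was lowest relative to CAL-29 cells, at -4.63 (SE 0.31, edgeR adjusted p = 4.99e-13). FRMD6 and AMOTL2 were lower as well, at -0.72 (SE 0.04, edgeR adjusted p = 0.000311) and -0.68 (SE 0.04, edgeR adjusted p = 0.0071), and so was AJUBA, at -0.65 (SE 0.04, edgeR adjusted p = 0.0374), a call that was lost without any 1 of 10 of the 12 libraries (edgeR adjusted p between 0.05005 and 0.167), all but siKMT9α replicate 3 of CAL-29 cells and siCtrl replicate 2 of 5637 cells, and was lost with no low-count filter too. CCN2, with 0.53 (SE 0.08), gave no call and CCN1, with -0.68 (SE 0.07, edgeR adjusted p = 0.0656), just missed one, passing without siCtrl replicate 3 of CAL-29 cells or siCtrl replicate 2 of 5637 cells (edgeR adjusted p at most 0.0178), and with upper-quartile scaling, DESeq2 size factors or either other filter on low counts. Similarly, NF2, F3 and MOB1A gave no call with all libraries and passed when certain single libraries were left out or, for MOB1A, with upper-quartile scaling or the stricter filter.

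**Figure D5:**
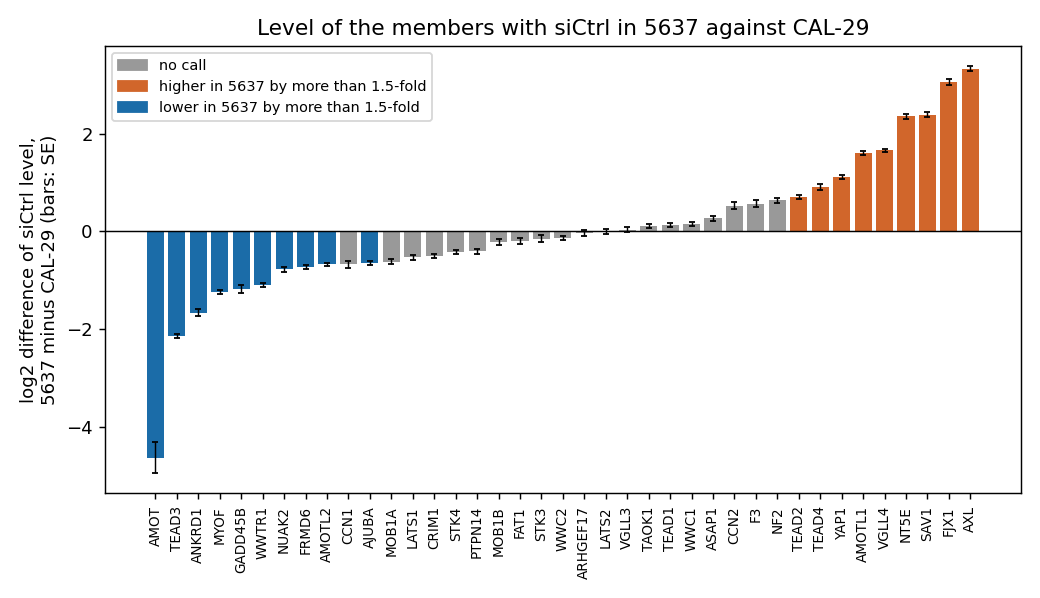
Log2 difference in siCtrl level between 5637 and CAL-29 cells for each of the 39 members, sorted, with the standard error as bars, orange for genes higher and blue for genes lower in 5637 cells by more than 1.5-fold (glmTreat, adjusted p below 0.05). AXL and FJX1 lie above 3 on the log2 scale and AMOT and TEAD3 below -2.

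Of 39 further Hippo pathway genes, 37 were tested in CAL-29 cells, with 6 up and 11 down (median log2 fold change -0.15), and 38 in 5637 cells, with 11 up and 12 down (median -0.01), beside the shares of all genes of 14.9% up and 15.0% down in CAL-29 and 17.9% up and 17.5% down in 5637 cells. The 4 with the largest mean change over both lines were STK38L, RASSF1, STRN and PATJ. STK38L, an NDR kinase related to LATS kinases, had log2 fold changes of -2.50 in CAL-29 and -1.34 in 5637 cells, and RASSF1, which binds MST kinases, of 0.59 in CAL-29 and 1.57 in 5637 cells. STRN, a subunit of the phosphatase complex that opposes MST kinases, had -0.62 in CAL-29 and -1.29 in 5637 cells, and PATJ, a polarity protein of the Crumbs complex, had -0.95 in CAL-29 and -0.90 in 5637 cells. All 4 were called in both lines, against 8.39% up and 8.43% down in both among all genes tested in both. Since they were chosen by the size of their change, these calls are no independent result.

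Of 16 further reported YAP-TEAD targets, CAL-29 cells had 2 up and 11 down (median -0.93) and 5637 cells 3 up and 7 down (median -0.15), beside the same shares of all genes, and the rises lie near them. The median was thus lower in CAL-29 than in 5637 cells, as it was for the 13 target members. RBMS3, TNS1 and TGFB2 were among those with the largest mean change and fell in both lines. RBMS3, an RNA-binding protein, had log2 fold changes of -1.68 in CAL-29 and -2.21 in 5637 cells, TNS1, a focal adhesion protein, of -1.32 in CAL-29 and -2.02 in 5637 cells, and TGFB2, a TGF-beta ligand, of -1.10 in CAL-29 and -1.23 in 5637 cells. The 5637 value of TNS1 is the least certain, since its mean with siCtrl there was only 1.54 CPM. The SE in 5637 cells was 0.31 for TNS1, 0.16 for RBMS3 and 0.04 for TGFB2.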

How the data were processed

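RNAseq of 12 libraries was analysed, 3 for each siRNA in CAL-29 and in 5637 cells, harvested on day 3. According to the paper and labels, the authors used STAR, HOMER and edgeR with the hg19 build. They deposited estimated counts per RefSeq transcript, not normalized and in steps of 0.5, for 37400 transcripts. Strand and isoform settings of the counting are not given in the sources used here. The authors' own fold changes and p-values in the same tables were not used. Replicate numbers are those of the sample titles, which number the siKMT9α libraries differently from the descriptions.

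Per symbol and line, only the transcript with the highest summed count entered, rounded to integers. Scaling was by TMM and filtering by filterByExpr, and edgeR 4.0.16 under R 4.3.3 gave the quasi-likelihood F test of siRNA per line. SE is the log2 fold change over the square root of F. Responses and siCtrl levels were compared between lines with glmTreat against 1.5-fold in a joint model. An exact permutation test of 3 libraries against 3 has a smallest p of 0.1. Replicates varied beyond counting noise (chi-square per degree of freedom 2.25 to 12.3 between pairs of libraries), and depth adds to the error of genes with few counts, such as AMOT. The highest values, 12.3 and 8.18, both came from pairs with CAL-29 siCtrl replicate 1. All other pairs gave at most 4.00.

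Members, gene lists and tests were chosen with earlier results of these data known. Values per library are given for YAP1, WWTR1, the TEAD factors, LATS1 and LATS2, for members called in both lines and for members whose response differed between lines, and at most 4 genes were named from each further list. A gene that this rule would name is not reported here. The alternatives were other scalings, filters, transcripts, tests (DESeq2 1.42.0 among them) and thresholds, a replicate block, a joint model and each library left out. Sequences came from RefSeq (GRCh38.p14) and GENCODE (GRCh37), read with Python 3.11.15 and pandas 2.3.3.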

Additional observations from a re-analysis of the deposited data

Results flagged for a closer look

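The 11 members below drew attention because the interaction of cell line and siRNA, tested against a 1.5-fold difference with edgeR's glmTreat, passed an adjusted p of 0.05. Each value is the log2 response in 5637 cells minus that in CAL-29 cells, from the joint model. Among the targets it was 2.07 for CCN2, 1.84 for NUAK2, 1.28 for GADD45B, 1.22 for ANKRD1, 0.94 for ASAP1 and 0.83 for NT5E. Among the other members it was 1.06 for WWTR1, 0.90 for WWC2, 0.89 for FRMD6, 0.81 for FAT1 and -1.0 for VGLL3. Of these, FAT1 and NT5E passed by the narrowest margin. Transfection reagent, siRNA concentration and medium differed with the cell line and cannot be told apart from it. No group held the 4 libraries that a check for a single outlying library would need.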

How the results depend on the processing

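Scaling, filter, choice of transcript, test, joint model and leaving out 1 library kept every count of called members within 1.5 times its value. The counts were between 21 and 28 in CAL-29 cells (25 with all libraries) and between 24 and 25 in 5637 cells when 1 library was left out, and the response differed between lines for 9 to 11 members. Over all genes, the calls then ranged from 3160 of 14923 to 5533 of 14846 in CAL-29 cells (4396 of 14682 with all libraries). In 5637 cells they ranged from 4219 of 14567 to 4952 of 14512 (5085 of 14367 with all libraries). A line difference was called for between 1490 and 1668 of all genes. Requiring a change of at least 1 on the log2 scale as well left 8 called members in CAL-29 cells, 1 up and 7 down, and 7 in 5637 cells, 2 up and 5 down. The share of all genes that met this requirement was not taken, so these counts have no background beside them. With an adjusted p below 0.05 in place of 1e-06, 17 members rose in 5637 cells, against 35.0% of all genes tested. For the 29 members described library by library, the log2 fold change in each line was counted once per alternative. The same responses thus recur, and the values are not independent. Of these values, 901 kept direction and call, 18 lost their call (all from ARHGEF17, FRMD6, MYOF and STK4) and 8 gained one (NT5E and WWTR1). The value of YAP1 in CAL-29 cells turned to -0.0071 with upper-quartile scaling. Of the other members, AMOTL2 lost its CAL-29 call and gained one in 5637 cells, AMOT, CRIM1 and FJX1 gained one in CAL-29 cells, and AMOTL1 and NF2 gained one in 5637 cells, each under 1 or more alternatives. Total-count scaling moved the median response difference of all genes from -0.04 to -0.16. The labels do not say whether libraries with the same number belong together. Their deviations correlated at 0.17, 0.03 and 0.06 in CAL-29 and at 0.15, -0.01 and -0.01 in 5637 cells. Libraries with different numbers correlated between -0.15 and 0.11 in CAL-29 and between -0.09 and 0.10 in 5637 cells. The pair of replicates 1 was the highest in each line, so a pairing by number stays undecided. A replicate block gave 28 called members in CAL-29 cells, 25 in 5637 cells and 11 with a line difference. Of all genes it called 6194 of 14682 in CAL-29 cells, 5226 of 14367 in 5637 cells and 1721 of 15411 with a line difference. AMOT could not be compared between lines at 10 counts in every library.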

Other observations

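Replicates of a group differed little for most members and more for some targets. The coefficient of variation over the 3 libraries of a group had a median between 2.79% and 4.63% over the members with a mean above 1 CPM. It was highest for FAT1 with siCtrl in CAL-29 cells (18.2%), followed by F3 with siCtrl in CAL-29 cells (16.2%), ANKRD1 with siKMT9α in 5637 cells (15.6%) and CCN2 with siCtrl in 5637 cells (14.8%). Which control library held the highest value was counted after the values were seen, and no test was made of it. Of the 13 targets, 10 had their highest siCtrl value in 5637 cells in replicate 2, as did 11 of the 26 other members. In CAL-29 cells, 9 of the 13 targets had their highest siCtrl value in replicate 1, as did 9 of the 26 other members. With siKMT9α it was again replicate 1 for 9 of the 13 targets and for 11 of the 26 others in CAL-29 cells, and in 5637 cells replicate 3 for 7 of the 13 targets and for 10 of the 26 others.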
